A study of Mus musculus with 4 samples.

Results

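The activity-induced immediate early genes described here are Fos, Fosb, Fosl2, Jun, Junb, Jund, Egr1, Egr3, Arc and Nr4a1. Every probe set that the platform annotation assigned to 1 of these 10 symbols and to no other gene was taken, which gave 14 probe sets out of 45037 on the array. Fosl2, Jun, Jund and Egr3 had 2 probe sets each, and the other genes had 1. They were measured in mouse hippocampi dissected at postnatal day 2 and frozen before total RNA was extracted. The group labelled Zbtb20 knockout had 2 arrays, and the group labelled wildtype, from littermates and called control here, had 2 arrays. The labels give neither the allele, the strain, the cells in which the gene was removed nor the sex of the pups. Nor do they state how many animals stand behind each array, so the spread between arrays, and the p-values that rest on it, may be technical.

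Immediate early genes are transcribed within minutes of a stimulus, without new protein synthesis, because the transcription factors that act on them are already present and are switched on by phosphorylation. In neurons, calcium entry through glutamate receptors and voltage-gated channels acts through kinases on CREB at cyclic AMP response elements (CREs) and on SRF with its partners at CArG boxes. Most of the products are transcription factors themselves. Fos and Jun family proteins pair through leucine zippers to form AP-1, Egr proteins are zinc finger factors, Nr4a1 is an orphan nuclear receptor, and Arc is a postsynaptic protein that takes part in AMPA receptor removal. Their RNA in hippocampus is widely used as a mark of recently active cells.

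Promoter sequences from RefSeq (build GRCm38.p6), matched by symbol, were used for 7 of the 10 genes: Fos, Fosb, Fosl2, Jun, Junb, Jund and Nr4a1. Egr1, Egr3 and Arc were left out of this search, so the motif counts say nothing about their promoters. The 250 bases before the annotated start were searched on both strands for the full CRE (TGACGTCA), its core (TGACG, which lies within the full CRE), the AP-1 site (TGANTCA), the CArG box, the EGR site (GCGNGGGCG), the TATA box (TATAAA) and the monomer site of the Nr4a factors (AAAGGTCA). The CRE core was present in 4 of the 7 windows (Fos, Fosb, Junb and Nr4a1), and in 17.8% of 32851 promoter windows of the same length. The EGR site was present in 3 (Fosb, Fosl2 and Nr4a1), against 4.7% of all windows, and the TATA box in 1 (Fos), against 12.4%. The full CRE, the AP-1 site, the CArG box and the Nr4a site were in 0 of the 7, and in 1.55%, 6.75%, 1.47% and 1.34% of all windows. A match describes letters in this window and is not a measured binding site. The windows of the Fos family are shown to compare its 3 members, that of Nr4a1 because it held the most matches, and that of Jund because this gene had a similar difference in both pairs of arrays described below. Each runs 5′ to 3′ on the gene's strand, with capitals at CRE cores, EGR sites and TATA boxes on either strand.
Fos: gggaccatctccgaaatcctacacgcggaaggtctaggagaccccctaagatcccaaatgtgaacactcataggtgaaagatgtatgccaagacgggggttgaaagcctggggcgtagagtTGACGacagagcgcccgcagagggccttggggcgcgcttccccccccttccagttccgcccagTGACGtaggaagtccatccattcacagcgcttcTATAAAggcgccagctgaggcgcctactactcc
Fosb: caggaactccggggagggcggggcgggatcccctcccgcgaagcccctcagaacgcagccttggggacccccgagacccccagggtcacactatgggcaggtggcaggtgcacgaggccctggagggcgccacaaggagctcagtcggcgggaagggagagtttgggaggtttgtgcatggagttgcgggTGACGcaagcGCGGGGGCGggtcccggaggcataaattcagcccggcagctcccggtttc
Fosl2: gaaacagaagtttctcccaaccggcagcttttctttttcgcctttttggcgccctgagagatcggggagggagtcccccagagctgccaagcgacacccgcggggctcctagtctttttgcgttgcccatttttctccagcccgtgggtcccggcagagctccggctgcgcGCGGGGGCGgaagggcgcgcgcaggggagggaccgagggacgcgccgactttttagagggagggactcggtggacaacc
Jund: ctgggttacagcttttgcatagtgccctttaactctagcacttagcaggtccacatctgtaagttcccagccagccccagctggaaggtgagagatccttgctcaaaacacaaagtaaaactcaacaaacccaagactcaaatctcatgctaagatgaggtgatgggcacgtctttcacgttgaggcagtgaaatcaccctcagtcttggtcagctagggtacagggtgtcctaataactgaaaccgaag
Nr4a1: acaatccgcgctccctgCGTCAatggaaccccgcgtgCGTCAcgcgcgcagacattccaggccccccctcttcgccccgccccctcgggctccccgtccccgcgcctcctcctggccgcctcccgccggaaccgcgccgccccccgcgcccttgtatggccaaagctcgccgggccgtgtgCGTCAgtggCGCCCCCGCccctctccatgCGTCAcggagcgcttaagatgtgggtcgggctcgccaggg

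These windows lie at chr12:85473640-85473889 on the plus strand for Fos, chr7:19310046-19310295 on the minus strand for Fosb, chr5:32136222-32136471 on the plus strand for Fosl2, chr8:70697489-70697738 on the plus strand for Jund and chr15:101266596-101266845 on the plus strand for Nr4a1. In Fos the CRE cores began 129 and 66 bases before the start and the TATA box began 33 bases before it. In Fosb a CRE core began 60 bases and an EGR site 50 bases before the start. Fosl2 held no CRE core and 1 EGR site, 79 bases before the start, and Jund held none of the searched motifs. Nr4a1 held 4 CRE cores and 1 EGR site, each on the opposite strand. These letters say nothing about binding in the hippocampus.

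The deposited values were MAS5 signals on a linear scale, and the arrays came on a pair of scales. In replicate 1 the knockout array had a trimmed mean of 497 and the control array of 498, and in replicate 2 they had 156 and 158. Knockout and control were therefore compared within each replicate number, called pair 1 and pair 2, as a ratio of signals and as a difference of log2(signal + 32.56), knockout minus control. The added constant pulls the differences of dim probe sets toward 0, and more so on the lower scale of pair 2. Each such difference compares single arrays and has no replicate check. Probe sets whose mean log2 value was above the 40th percentile were tested, which left 27022 of all probe sets and 11 of the 14 described here. Fosb, Arc and the Jund probe set 1440265_at fell below this filter and are given by their signals. The Zbtb20 probe sets did not settle the genotype labels, since 3 of 9 were lower in knockout in pair 1, 2 in pair 2 and 0 in both. At 1 of them the ratio of knockout to control was 0.488 in pair 1 and 2.08 in pair 2. The direction of every difference given here therefore rests on the genotype labels alone. Marker lists gave the following for the tissue label. All 7 measured genes of hippocampal and cortical glutamatergic neurons, 4 of dentate granule cells, 4 of field CA1 and 4 of fields CA2 and CA3 were above the filter. So were 4 of 4 genes of thalamus, 4 of 5 of striatum, 6 of 6 of meninges, 6 of 6 of choroid plexus and 8 of 8 of liver, so passing the filter does not tell hippocampus from tissue around it. The filter used the mean of all 4 arrays. Fgb, Fga, Ambp and Ahsg of the liver list passed it through pair 1, since their pair 2 signals were between 16.96 and 28.08.

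Over all 4 arrays no immediate early gene was found to differ between knockout and control. In limma's test over 27022 probe sets, without the replicate number in the model, 0 probe sets had an adjusted p under 0.05 (0% of those tested) and 5 had an unadjusted p under 0.05. Of the 11 probe sets of immediate early genes, 0 passed. Their differences lay between log2 -0.48 for Egr3 (1421486_at) and 0.37 for Fosl2 (1437247_at), and the smallest unadjusted p among them was 0.4057 (limma, adjusted p = 1). With the replicate number, and so the scale, as a block, limma also called 0 probe sets (0%), while 330 had an unadjusted p under 0.05. With 2 arrays against 2, an exact permutation test of 1 probe set cannot go below a two-sided p of 0.333, so none was used to call a gene. Without the block the gap in scale between the replicates enters the SE. For Jund 1449117_at the SE was 1.69 without the block and 0.16 with it. These are limma's moderated SEs, which borrow from the spread of other probe sets of like brightness. Without the block limma gave this shared spread infinite weight (prior degrees of freedom), so each SE came from it and not from the probe set itself. With the block the weight was 5.98, beside 1 residual degree of freedom. The counts of 5 and 330 are both below the 0.05 share of 27022 that evenly spread p-values would give. The lack of calls therefore does not show that knockout and control were alike.

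**Figure D1:**
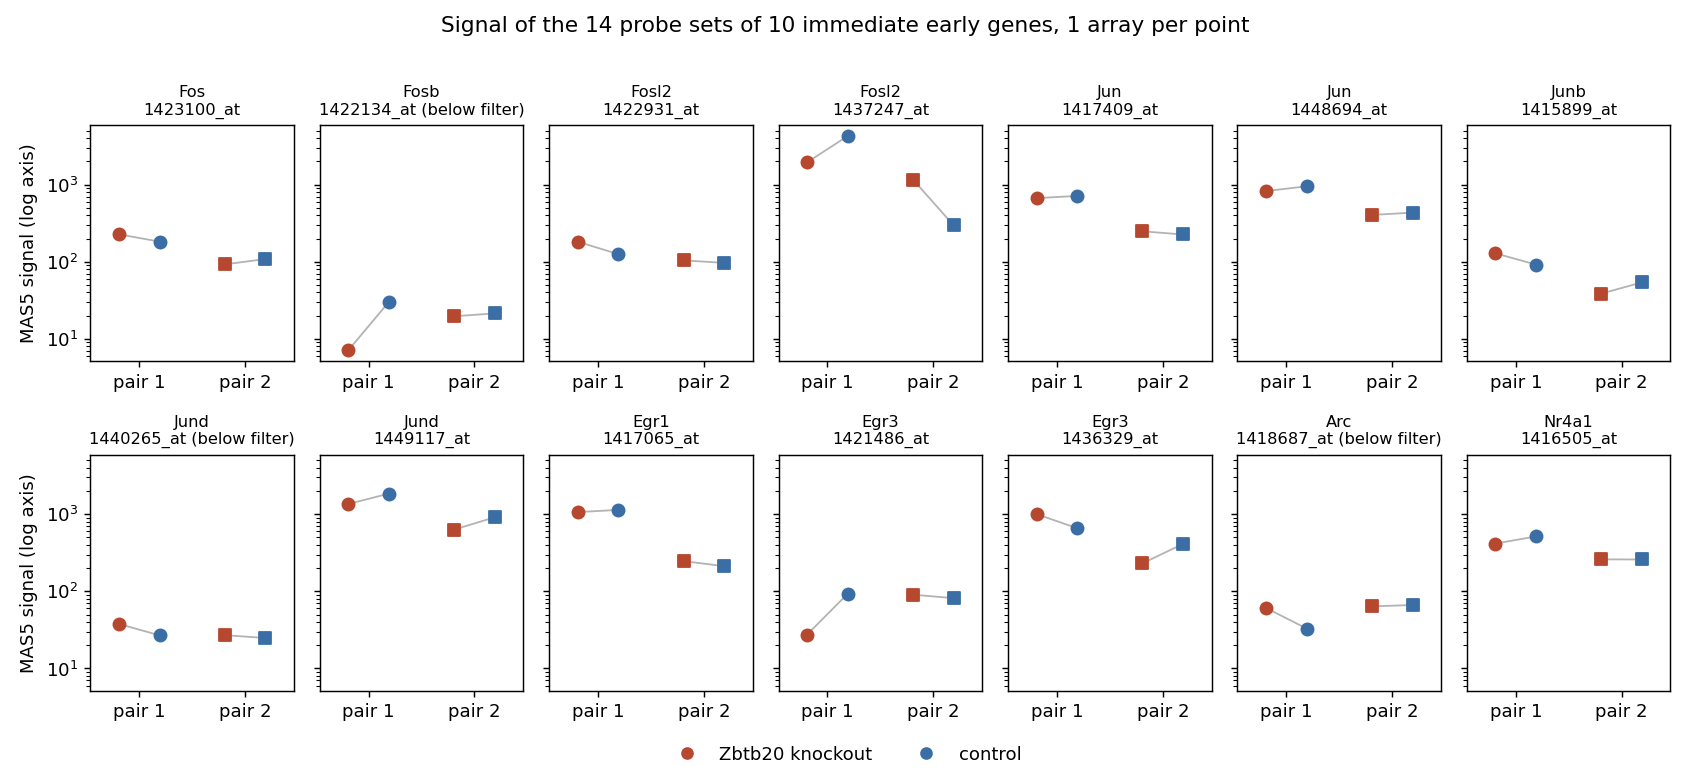
MAS5 signal (log axis) of each of the 14 probe sets on the 4 arrays, knockout in red to the left of control in blue within each pair, circles for pair 1 and squares for pair 2, 1 array per point. Fosl2 1437247_at slopes up toward control in pair 1 and down in pair 2, and Jund 1449117_at is lower in knockout in both pairs.

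The Fos family supplies the AP-1 subunits that cannot pair with themselves and need a Jun partner. Fos, the founding member, had signals of 227.2 and 92.55 on the knockout arrays of pairs 1 and 2, against 182.5 and 108.43 on the control arrays. Knockout was thus the higher array in pair 1 (ratio 1.24, log2 0.27) and the lower in pair 2 (ratio 0.854, log2 -0.17). Fosb, whose splice form ΔFosB accumulates with repeated stimulation, had 7.1 and 19.66 on the knockout arrays and 30.3 and 21.42 on the control arrays. These signals lay between percentiles 5.41 and 21.0 of their arrays, so Fosb was dim on all 4.

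Fosl2, which encodes Fra-2, gave the widest differences on the log2(signal + 32.56) scale among the 11 tested probe sets, and its own probe sets disagreed. As plain ratios of dim signals, Fosb at 0.234 and Egr3 1421486_at at 0.295 in pair 1 were farther from 1. At 1437247_at the signal was 1949 and 1164 on the knockout arrays of pairs 1 and 2, against 4280 and 296 on the control arrays. Both knockout values lay between the 2 control values, so the groups overlapped. Knockout over control was 0.455 in pair 1 (log2 -1.12) and 3.93 in pair 2 (log2 1.87). These differences stood at rank 538 from the low end in pair 1 and at rank 13 from the high end in pair 2, among 27022 probe sets. Among all tested probe sets 0.0962% of probe sets were over 2-fold lower in knockout in pair 1 while over 2-fold higher in pair 2, 0.204% were so in either order of signs, and 0% were over 2-fold apart in the same direction. Limma gave a difference of log2 0.37 ± 1.74 over all 4 arrays (moderated SE, n = 2 per group, adjusted p = 1). The reversal between pairs could not be tested, since each pair holds 1 array per group.

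The other Fosl2 probe set, 1422931_at, had signals of 182 and 104.37 on the knockout arrays, against 125.6 and 96.73 on the control arrays. Knockout was higher in both pairs there, with ratios of 1.45 and 1.08 (log2 0.44 and 0.08). In pair 1 the probe sets of Fosl2 thus had opposite signs, and in pair 2 they differed in size. Their positions in the transcript were not used here.

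**Figure D2:**
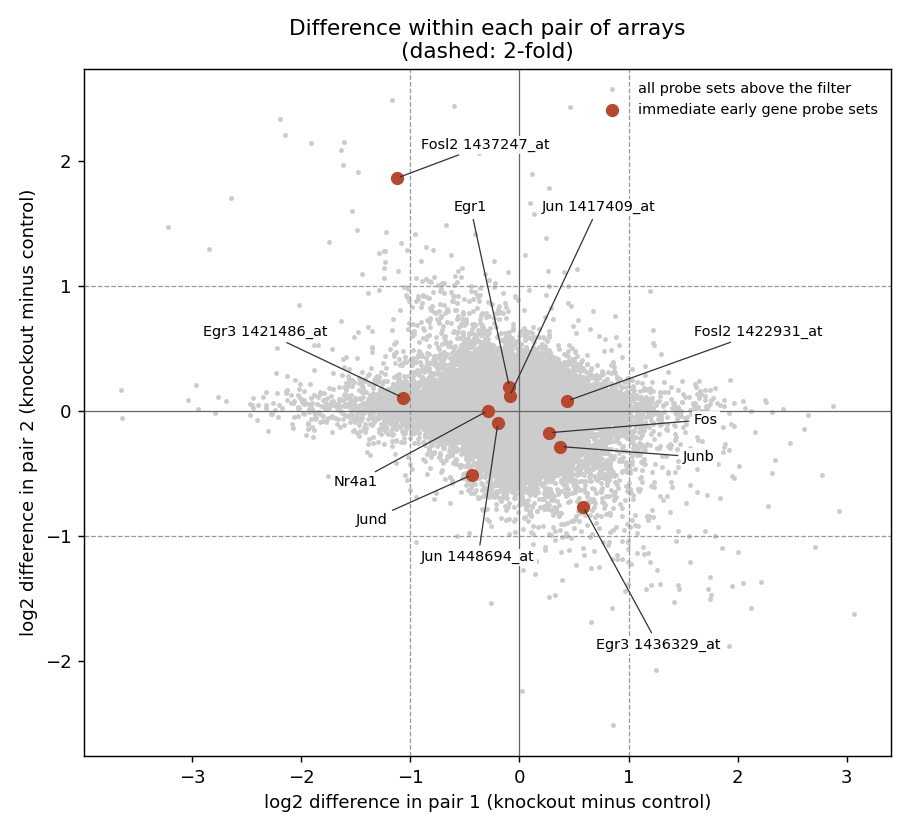
Difference of log2(signal + 32.56), knockout minus control, in pair 1 (horizontal) and pair 2 (vertical), for 27022 probe sets in grey and the 11 tested probe sets of immediate early genes in red, with 2-fold marked by dashed lines. Fosl2 1437247_at lies at -1.12 and 1.87, and Jund lies below 0 on both axes.

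The Jun family supplies the AP-1 subunits that pair with Fos proteins or with each other. Jun had 2 tested probe sets. At 1448694_at the knockout arrays had 826.2 and 404.75, against 952 and 434.16 on the control arrays, ratios of 0.868 and 0.932. At 1417409_at they had 669 and 248.33, against 714.2 and 225.91, ratios of 0.937 and 1.10. The values of Jun were therefore within log2 0.20 of control in each pair, with 1 probe set lower in both pairs and the other of mixed sign. Junb, which can restrain Jun activity in AP-1 dimers, had 128.8 and 38.67 on the knockout arrays, against 91.8 and 54.11 on the control arrays. The pair 1 ratio was 1.40 (log2 0.38) and the pair 2 ratio 0.715 (log2 -0.28), the same order of signs as Fos.

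Jund, the Jun family member with high expression in unstimulated cells, was lower in knockout in both pairs by a similar amount. The probe set 1449117_at had signals of 1356 and 632 on the knockout arrays, against 1849 and 914 on the control arrays. The ratios were 0.733 and 0.691, or log2 -0.44 and -0.51. Across the scales the groups overlapped, because the knockout array of pair 1 was brighter than the control array of pair 2. In pair 1 the difference stood at rank 3829 from the low end of 27022 probe sets, and in pair 2 at rank 707. Limma gave log2 -0.47 ± 1.69 without the block (moderated SE, n = 2 per group, adjusted p = 1) and -0.47 ± 0.16 with it (unadjusted p = 0.02239, adjusted p = 0.9999). Jund was thus not called, and 21.6% of all tested probe sets were lower in knockout in both pairs. The dim probe set 1440265_at had 37.8 and 27.01 on the knockout arrays and 26.9 and 24.85 on the control arrays, the opposite direction at signals below the filter.

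The Egr factors bind GC-rich sites such as the one found in the Fosb, Fosl2 and Nr4a1 windows. Egr1, also known as Zif268 and a standard marker of hippocampal plasticity, had signals of 1065 and 246.59 on the knockout arrays, against 1137 and 211.91 on the control arrays. The ratios were 0.937 and 1.16 (log2 -0.09 and 0.19), so the 2 pairs differed in sign with small values. Egr3, a factor induced more slowly and for longer than Egr1, had a bright and a dim probe set that disagreed in both pairs. The bright one, 1436329_at, had 1002 and 230.01 on the knockout arrays, against 659 and 413 on the control arrays. Its ratios were 1.52 and 0.557 (log2 0.58 and -0.76), and the pair 2 difference stood at rank 195 from the low end of 27022. The dim one, 1421486_at, had 27.5 and 90.44 on the knockout arrays, against 93.3 and 81.57 on the control arrays. The pair 1 ratio there was 0.295 (log2 -1.07), with the knockout signal at percentile 21.7 of its array, and the pair 2 ratio was 1.11 (log2 0.11). The pair 1 value also passed 2-fold without a pseudocount (log2 -1.76) and centred on the 75th percentile (-1.065), but not after quantile normalization (log2 -0.70), nor with all arrays scaled to 1 trimmed mean (-0.79), nor with a larger added constant (-0.77). Limma's difference over all 4 arrays was -0.48, and -0.81 without a pseudocount.

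Arc and Nr4a1 were the remaining genes. Arc had signals of 60.9 and 63.87 on the knockout arrays, against 32.9 and 66.44 on the control arrays, percentiles 21.9 to 45.9 of their arrays. Its ratios were 1.85 and 0.961, and the probe set was below the filter. Nr4a1, also called Nur77, had 416 and 259.78 on the knockout arrays, against 515.1 and 258.92 on the control arrays. Its ratios were 0.808 and 1.003 (log2 -0.29 and 0.00425), and the pair 2 sign turned when arrays were centred on their 75th percentile (log2 -0.01).

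As a list, the immediate early genes had no common direction. Of the 11 tested probe sets, 4 were higher and 7 lower in knockout in pair 1, and 6 were higher and 5 lower in pair 2. Their median difference was log2 -0.09 in pair 1 and 0.00425 in pair 2, beside -0.02 and 0.02 over all 27022 tested probe sets. Past 2-fold, 2 were lower in pair 1 (Fosl2 1437247_at and Egr3 1421486_at), where 4.37% of all tested probe sets were that far apart (2.69% lower and 1.68% higher). In pair 2, 1 was over 2-fold higher (Fosl2 1437247_at), where 0.518% of all tested probe sets were that far apart (0.248% higher and 0.27% lower). Signs were opposite in the 2 pairs for 8 of the 11 (72.7%), beside 53.8% of all tested probe sets. On the deposited signals the groups overlapped for each of the 11, while 3.63% of all tested probe sets had groups that did not overlap. Only the dim probe sets Fosb 1422134_at and Jund 1440265_at had groups apart, and with all arrays scaled to 1 trimmed mean 0 of the 14 did, while 8.79% of all tested probe sets did. Both dim probe sets lie below the filter, so these shares of tested probe sets are no reference for them.

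Other genes known to be induced by neuronal activity were read from a list of 44, each represented by its tested probe set with the highest mean. Of these, 38 were above the filter, and limma called 0 of them. In pair 1, 20 were higher and 18 lower in knockout, and in pair 2, 19 were higher and 19 lower, while 48.6% and 49.8% of all genes were higher. Their medians were log2 0.05 and 0.01, beside -0.01 and -0.00063 over all 12581 genes. Past 2-fold in pair 1, 2 were higher, Scg2 and Inhba, and 1 was lower, Nr4a2, where 4.07% of all genes were that far apart (1.49% higher and 2.58% lower). Past 2-fold in pair 2, Nr4a2 was higher and Scg2 lower, where 0.66% of all genes were that far apart (0.254% higher and 0.405% lower). Nr4a2, a paralog of Nr4a1, had signals of 2558 and 1718 on the knockout arrays, against 7901 and 415 on the control arrays, and each of its 5 tested probe sets was lower in pair 1 but higher in pair 2. Ier5, whose product acts on heat shock factor 1, had the same order of signs at each of 3 probe sets, with log2 -0.82 and 0.71 at 1417612_at. Scg2, which encodes the neuropeptide precursor secretogranin II, went the other way, with signals of 2262 and 190 on the knockout arrays against 575 and 785 on the control arrays.

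**Figure D3:**
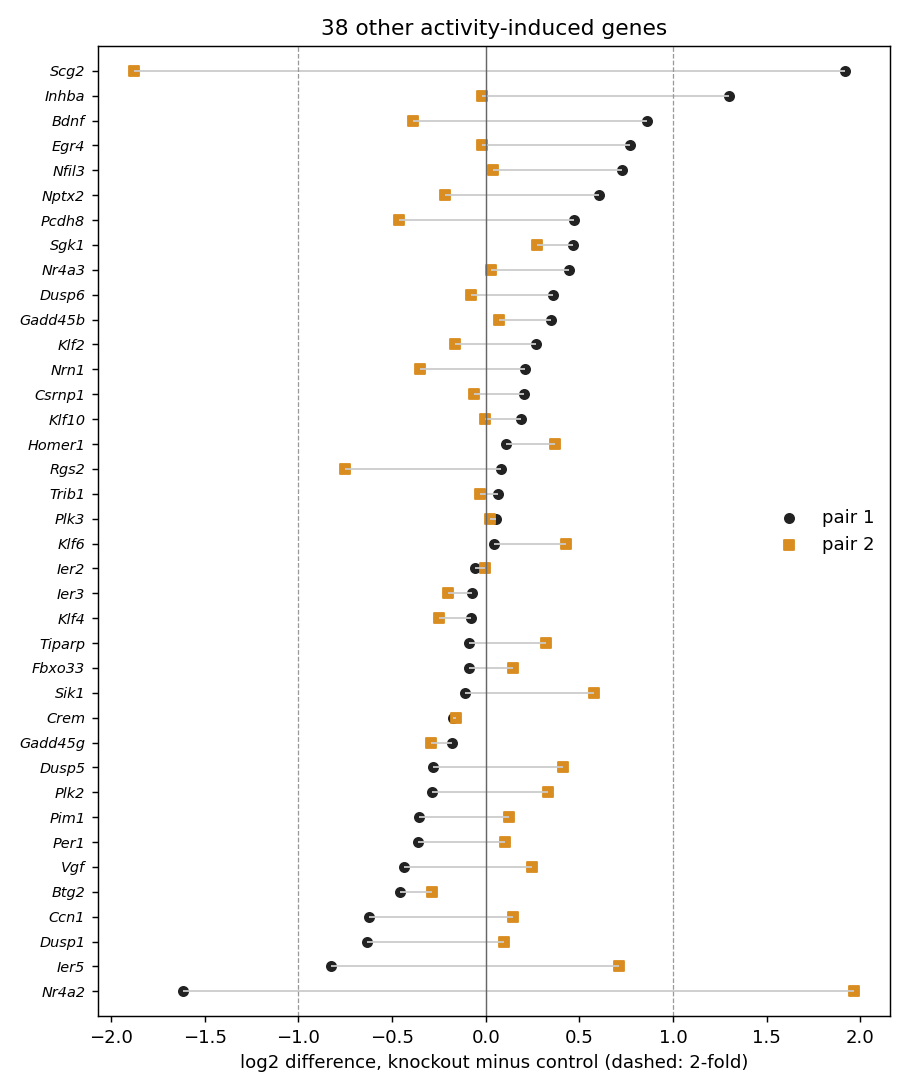
Difference of log2(signal + 32.56), knockout minus control, in pair 1 (black circles) and pair 2 (orange squares) for 38 other activity-induced genes, ordered by pair 1. Scg2 at the top and Nr4a2 at the bottom cross from over 2-fold on one side in pair 1 to over 2-fold on the other in pair 2.

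The remaining genes named from that list had pair 2 values nearer 0. Inhba, which encodes an activin subunit, was at log2 1.30 in pair 1 and -0.02 in pair 2. Its other probe set, 1458291_at, lay below the filter and was at log2 -1.12 in pair 1, the opposite direction. Egr4, a further zinc finger factor of the Egr family, was at 0.77 and -0.02. Nfil3, a bZIP repressor, was at 0.73 and 0.04, and Sgk1, a serum- and glucocorticoid-induced kinase, was at 0.47 and 0.28. Of the 38 genes, 25 had opposite signs in the 2 pairs (53.5% of all genes did), 7 were higher in knockout in both and 6 were lower in both.

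The signalling proteins and transcription factors upstream of the immediate early genes were read from a list of 31, of which 25 had a probe set with 1 gene symbol and 24 were above the filter. Limma called 0. In pair 1, 13 were higher and 11 lower in knockout, and in pair 2, 15 were higher and 9 lower, with medians of log2 0.02 and 0.01. Mef2c, a MADS-box factor that acts on activity-dependent enhancers, had signals of 3747 and 1665 on the knockout arrays, against 3121 and 749 on the control arrays. Each of its 5 tested probe sets was higher in knockout in both pairs, between log2 0.26 and 0.87 in pair 1 and between 0.76 and 1.14 in pair 2. Elk1 and Elk4, ternary complex factors that join SRF at CArG boxes, were at log2 0.68 and 0.11 and at 0.44 and 0.30, but each had another tested probe set of differing sign. Crtc2, a CREB coactivator, was at -1.14 and -0.12 on a dim probe set, with knockout signals of 36.1 and 84.25 against control signals of 118.7 and 94.59. Rps6ka5 (MSK1), a kinase that phosphorylates CREB and histone H3, was at -0.34 and 0.55, and Prkaca, the catalytic subunit of protein kinase A, was at 0.62 and -0.29.

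Dimer partners, kinases, cofactors and paralogs of the immediate early genes made a list of 28, of which 22 were above the filter and 0 were called by limma. In pair 1, 11 were higher and 11 lower in knockout, and in pair 2, 12 were higher and 10 lower, with medians of log2 -0.06 and 0.03. Batf and Batf3, bZIP proteins that pair with Jun, were at -1.21 and -0.03 and at -0.77 and 0.10. Jdp2, a repressor that binds AP-1 sites with Jun, was at 0.29 and -0.65. Mapk10 (JNK3), the neuronal member of the kinases that phosphorylate Jun, was at 0.61 and -0.56, and Nfatc1, a calcineurin-regulated factor that cooperates with AP-1, was at 0.54 and 0.16 at 1 probe set and had opposite signs in the 2 pairs at its other 2. Nr4a2 and Egr4, described above, are on this list too.

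Some lists of markers of tissue next to the hippocampus and of other cells shared the order of signs of some of these values. Such orders were common. Of 27022 tested probe sets, 8236 were lower in pair 1 but higher in pair 2, and 6290 were the reverse. A further 6640 were higher in both pairs and 5835 were lower in both. Of 6 genes of subiculum and retrosplenial cortex, a list that contains Nr4a2, 5 had the order of signs of Fosl2 1437247_at, lower in pair 1 but higher in pair 2, and Nxph4 was lower in both. Their summed signal was 12346 and 8900 on the knockout arrays of pairs 1 and 2, against 35017 and 2301 on the control arrays. Most of this sum was Nts, at 7002 and 5950 on the knockout arrays, against 21361 and 1314 on the control arrays. Of 7 interneuron genes, read by the tested probe set with the highest mean, 6 had the order of signs of Egr3 1436329_at. That order was higher in pair 1 but lower in pair 2, and Dlx2 was lower in both. The probe sets of these genes were less uniform. Of 9 tested, 6 had that order and 3 were lower in both pairs. Gad1 and Gad2 each had another probe set among those 3. The summed signal of the 7 genes was 12332 and 2144 on the knockout arrays, against 9310 and 3905 on the control arrays. Of 4 genes of fields CA2 and CA3, 3 had the order of Egr3 1436329_at too. Of 6 genes of meninges, 6 were lower in pair 1, 3 of them over 2-fold, and in pair 2, 3 were higher and 3 lower. Dcn among them, which encodes the matrix proteoglycan decorin, had the order of Fosl2 1437247_at, at log2 -1.74 and 1.36. The summed signal of meninges was 3095 and 1236 on the knockout arrays, against 6520 and 729 on the control arrays. Dcn alone gave 1063 and 869 of it on the knockout arrays, and 3639 and 320 on the control arrays. Of 6 choroid plexus genes, 5 were higher in both pairs and Otx2 was lower in both, with medians of log2 0.65 and 0.46 and a sum, mostly Ttr, of 75935 and 9613 on the knockout arrays against 63626 and 3815 on the control arrays. Of 8 microglia genes, 3 were lower and 5 higher in pair 1, 7 were lower in pair 2 and 3 were lower in both, the direction of Jund, with a sum of 4736 and 1295 on the knockout arrays against 4983 and 1587 on the control arrays. Of 8 measured liver genes, 7 were over 2-fold lower in knockout in pair 1, while Ttr, which the choroid plexus also makes, was higher. Albumin (Alb) had 15195 and 45.2 on the knockout arrays, against 39309 and 42.23 on the control arrays. In other lists, signs were opposite in the 2 pairs for 4 of 7 glutamatergic, 2 of 4 dentate and 2 of 4 CA1 genes. They were also opposite for 1 of 4 striatum, 3 of 4 thalamus and 3 of 6 endothelium genes, beside 53.5% of all genes. The part of these markers in the values of the immediate early genes and of Mef2c was not tested. In bulk tissue, fewer cells of a type and less RNA per cell cannot be told apart.

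**Figure D4:**
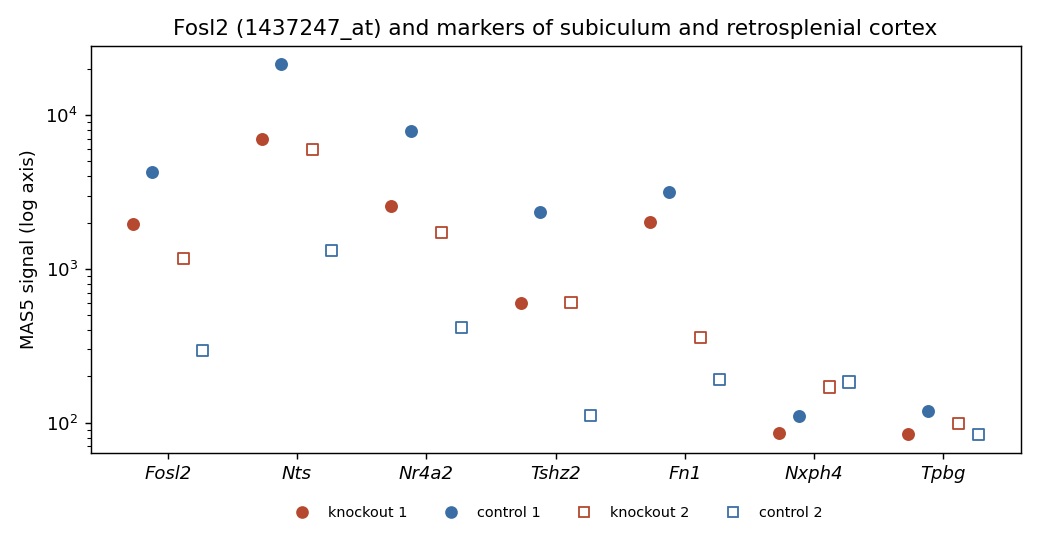
MAS5 signal (log axis) on each of the 4 arrays, with knockout left of control in each pair, filled circles for pair 1 and open squares for pair 2, for Fosl2 1437247_at and 6 markers of subiculum and retrosplenial cortex. Nts, Nr4a2, Tshz2, Fn1 and Tpbg, like Fosl2, are lower in knockout in pair 1 but higher in pair 2, and Nxph4 is lower in both.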

How the data were processed

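Signal intensities were deposited by the authors as 1 linear value per probe set and array, and per the submitters' processing notes MAS5 was the tool. The version and scaling target are not given in the sources used here, and detection calls were not used here. Precision is limited by the number of arrays. Of 45037 probe sets, 34945 had 1 gene symbol in the platform annotation, 932 had several and 9160 had none. Signals were transformed as log2(signal + 32.56), the 20th percentile of all values, with the authors' scaling kept. Probe sets with a mean log2 value above the 40th percentile were tested with limma 3.58.1 in R 4.3.3 (lmFit, eBayes with a mean-variance trend, no covariate, Benjamini-Hochberg adjustment, threshold 0.05), with 2 residual degrees of freedom, or 1 with the replicate block. The prior degrees of freedom were infinite without the block and 5.98 with it. The members and gene lists were chosen with earlier results of these data known, so no list was tested. From each of the 4 lists of related genes (marker lists apart), up to 4 genes with the largest mean of the pair differences, up to 4 with the largest difference between pairs, and those over 2-fold apart in both pairs were named. Alternatives were other scalings, pseudocounts, filters, moderation settings, 1 probe set per gene, the replicate block and leaving out each array.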

Additional observations from a re-analysis of the deposited data

How the results depend on the processing

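Under each of the 15 alternative settings of limma's test, including the replicate block (0 calls of 27022 probe sets), the replicate block with quantile normalization and leaving out each array (0 calls each), 0 probe sets in the table and 0 of the immediate early genes were called. The labels do not say what a shared replicate number marks. Across 27022 probe sets the deviations from the group means of arrays sharing a number had a correlation of 0.837, and the number coincides with the scale of the values. Without 1 array, limma's difference without the block ranged from log2 -1.49 to 2.23 for Fosl2 1437247_at, from -1.01 to 0.057 for Jund 1449117_at (0.057 without knockout replicate 2 and 0.021 without control replicate 1) and from -0.997 to 0.037 for Egr3 1421486_at. By construction each such fit sets arrays of unequal scale against each other. Of the 11 tested probe sets of immediate early genes, 2 were over 2-fold apart in pair 1, where 4.37% of all tested probe sets were. This count fell to 1 with quantile normalization (2.28% of all) and with the pseudocount at the 40th percentile (2.48%). It was also 1 with all arrays scaled to 1 trimmed mean (2.55%), and each time it was Egr3 1421486_at that left. In pair 2 the count was 1 (0.518% of all). With a fold of 1.5 it was 2 in pair 1 (15.2% of all) and 2 in pair 2 (2.76%), where Egr3 1436329_at was added. Of 140 pair differences recomputed under 5 other scalings or pseudocounts, 138 moved by less than the SD of the probe set's pair differences, and 1 changed sign (Nr4a1 in pair 2). That SD rests on 2 values and is wide where the pairs disagree, so it is a loose measure of stability. Egr3 1421486_at is among the 138 in pair 1 although it crossed 2-fold. Dim signals limit Fosb, Arc, Jund 1440265_at and Egr3 1421486_at.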

Other observations

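Heat shock and unfolded protein response genes, which respond to handling and protein stress, had 9 of 10 listed members above the filter, and limma called 0. Read by the tested probe set with the highest mean, 0 of the 9 were past 2-fold in either pair, while 2 probe sets below the filter, of Hspa1b (1427126_at) and Hspb1 (1425964_x_at), were at log2 1.43 and 1.41 in pair 1. In pair 1, 7 were higher and 2 lower in knockout, and in pair 2, 4 were higher and 5 lower, with medians of log2 0.06 and -0.05. Hsph1, a nucleotide exchange factor for Hsp70, was at 0.56 and -0.19, and Hspa1b, an inducible Hsp70, at 0.48 and -0.45, with another probe set lower in both pairs. Dnajb1, an Hsp40 cochaperone, was at 0.18 and -0.13, and Hsp90aa1, the inducible cytosolic Hsp90, at -0.28 and 0.08, with probe sets of differing sign. Hspa5, the endoplasmic reticulum chaperone BiP, was at 0.00017 and 0.21, Hspb1, a small heat shock protein, at 0.21 and 0.03, and Ddit4, an inhibitor of mTORC1 signalling, at -0.42 and -0.16.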
